A study of Mus musculus with 5 samples.

Results

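The proteasome subunit genes are described here in the dopamine receptor Drd2 neurons of the mouse central amygdala (CeA). They were taken as every gene of the expression table whose symbol starts with Psm, a letter from a to g and a digit, which gave 47 of 15093 genes. Of these, 31 encode the constitutive subunits of the 20S core particle and the 19S regulatory particle. The others encode the immunoproteasome subunits Psmb8 and Psmb10, 3 chaperones of 19S assembly, 4 chaperones of 20S assembly, 4 activators and the inhibitor Psmf1. The rule also took in Psmc3ip, a meiotic recombination factor that is not a proteasome gene, and Psme2b-ps, a pseudogene close in sequence to Psme2. None of the 15093 genes carried the symbol Psmb9, Psma8 or Psmb11, so these could not be analysed.

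Messenger RNA bound to tagged ribosomes was captured by translating ribosome affinity purification and sequenced (TRAP-seq). Adult Drd2-TRAP mice carried a Drd2-Cre BAC transgene and a Rosa26 allele in which Cre removes a floxed stop and turns on the EGFP/Rpl10a ribosomal protein, so the tag marks cells in which the transgene drives Cre, now or earlier. Both groups carried both alleles, and each library was made from bilateral 1 mm CeA punches pooled from 3 mice. The fear conditioned (FC) group, which received tones paired with foot shocks, has 3 libraries (replicates 2, 3 and 4), and the home cage (HC) group has 2 (replicates 6 and 7). The sample labels place the brain collection 2 h after fear extinction and name the controls home cage animals, whereas the text of the study places it 2 h after conditioning and describes controls that heard the tone without shock. The comparison asks which ribosome-bound transcripts of these neurons differ after fear learning. Reads on genes ranged from 19605318 in HC replicate 7 to 27937520 in HC replicate 6. Levels are given in CPM, the reads of a gene per 1000000 of the effective library size used by the authors.

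The proteasome is the protease that destroys most ubiquitin-tagged proteins of the cytoplasm and the nucleus. Its 20S core is a stack of alpha rings, which gate the entry, and beta rings, which hold the cutting sites, and the 19S particle on its end binds ubiquitin chains, removes them and unfolds the substrate with a ring of ATPases. Activators of the Psme family can take the place of the 19S particle, and immune signals can exchange the cutting subunits for immunoproteasome forms. In neurons the proteasome remodels synapses, and in the amygdala its activity has been studied as a step in the storage of fear memories.

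The 2 HC libraries stood apart from each other, which bears on every result. Of the 47 genes, 36 had their highest or lowest value of all 5 libraries in HC replicate 7, or 76.6%, beside 75.6% of the 13560 genes tested. Genes at 0 numbered 2681 in HC replicate 7 and 976 in HC replicate 6, against 159 to 349 in the FC libraries. The log2 fold changes of the proteasome genes described below are therefore also given from the fits without HC replicate 6 and without HC replicate 7, where they moved by over 1.5 times or changed sign.

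The expected neurons were in every library. The summed level of 9 markers of striatal-type Drd2 neurons was 21220, 20139 and 21779 CPM in FC replicates 2, 3 and 4, and 7876 and 12845 CPM in HC replicates 6 and 7. No FC library overlapped the HC libraries, none of the 9 markers was at 0 in any library, and Penk, the enkephalin precursor, was the most abundant. Summed markers of astrocytes, choroid plexus, oligodendrocytes and endothelial cells were higher in both HC libraries than in any FC library, while those of microglia overlapped between the groups. The 10 astrocyte genes summed to 1068, 901 and 1110 CPM in the FC libraries and to 2336 and 3013 CPM in the HC libraries, and 10 choroid plexus genes to 109, 184 and 117 against 2228 and 1933 CPM. Lists of 10 genes each gave 1910, 1320 and 2803 against 2871 and 5580 CPM for oligodendrocytes, 140, 77.1 and 138 against 162 and 132 CPM for microglia, and 51.1, 20.9 and 55.0 against 69.2 and 268 CPM for endothelial cells. The most abundant genes of 4 of these lists were Slc1a2 (astrocyte), Ttr (choroid plexus), Csf1r (microglia) and Ly6c1 (endothelium). The astrocyte list held 7 genes that were lower in FC at an unadjusted p under 0.05, the oligodendrocyte list 5 and the choroid plexus list 6, the microglia list 1 and the endothelial list 0 (with 1 higher), beside 993 lower and 1287 higher of the 13560 genes tested. In the astrocyte list Gjb6 and Aldh1l1 had positive log2 fold changes (1.93 and 0.78), with the groups overlapping in both. The only positive value was that of Opalin (0.83) in the oligodendrocyte list and of Clic6 (0.08) in the choroid plexus list. In the endothelial list it was that of Cldn5 (2.03), the gene counted as higher. The microglia list had 4 positive and 6 negative values. Of the 9 Drd2 neuron markers, 7 were higher in FC at an unadjusted p under 0.05. Defining markers listed at 0 were Kcnj13, Folr1 and Slc4a5 in FC replicate 2, Aqp1 in FC replicates 3 and 4, Otx2 and Aqp1 in HC replicate 7, and Tek in both HC libraries. All cell types have proteasomes, and the part of these cells in the proteasome values was not tested. In RNA captured from pooled tissue, the number of cells of a type, the RNA per cell and the purity of the capture cannot be told apart.

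Promoters of proteasome genes are known to hold antioxidant response elements, to which the transcription factor Nfe2l1 binds when proteasomes are short. RefSeq promoter windows, from 250 bases before to 50 bases after the gene start on GRCm38.p6, were given for 39 of the member genes (42 windows). The core TGACNNNGC of the element, searched on both strands, lay in 6 of the 42 windows (14.3%), beside 4071 of 32851 windows of all genes (12.4%). The CCAAT box lay in 13 of the 42 (31.0%), beside 37.4% of all windows. The share of the element core is therefore close to that of all promoters, and a match describes letters and not a bound site. In 4 genes the core started within 50 bases before the gene start, and these are shown from 100 bases before to 20 bases after it, with the core in capitals. Psmb5 lies at chr14:54617976-54618095 (minus strand), Psmb6 at chr11:70525257-70525376 (plus), Psmd9 at chr5:123228090-123228209 (plus) and Psme4 at chr11:30771675-30771794 (plus). All are written 5′ to 3′ in the direction of the gene, and in Psme4 the core is on the opposite strand:
Psmb5: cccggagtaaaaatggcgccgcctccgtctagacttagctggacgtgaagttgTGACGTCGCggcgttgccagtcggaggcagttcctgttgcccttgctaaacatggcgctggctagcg
Psmb6: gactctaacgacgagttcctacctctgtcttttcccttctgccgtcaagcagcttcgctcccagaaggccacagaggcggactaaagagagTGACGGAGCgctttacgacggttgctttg
Psmd9: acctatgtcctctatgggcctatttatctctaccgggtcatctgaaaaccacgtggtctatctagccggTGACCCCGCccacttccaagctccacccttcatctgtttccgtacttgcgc
Psme4: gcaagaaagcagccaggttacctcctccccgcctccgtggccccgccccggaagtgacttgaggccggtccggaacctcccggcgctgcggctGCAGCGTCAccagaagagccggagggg

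The core started 47 bases before the gene start in Psmb5, 9 in Psmb6, 31 in Psmd9 and 7 in Psme4. These 4 genes did not share a direction between the groups. Psmb5, a cutting subunit, was at 85.3, 73.8 and 71.5 CPM in the FC libraries and 59.6 and 104 CPM in the HC libraries. Psmb6, also a cutting subunit, was at 379, 350 and 305 CPM against 244 and 322 CPM. Psmd9, a chaperone of 19S assembly, was at 65.5, 47.5 and 54.9 CPM against 58.9 and 67.3 CPM, and Psme4 is described with the activators. The groups overlapped in all 4.

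The subunits of the assembled proteasome were all abundant, but their levels per length were far from equal. Psmb1, a beta ring subunit without a cutting site, was highest at a mean of 478 CPM per kb over the 5 libraries (343 to 675). Psmc5 and Psmc1, ATPases of the 19S base, followed at 242 (177 to 285) and 216 (101 to 275) CPM per kb. The ranges of the latter pair overlapped, and neither reached that of Psmb1. The lowest of the 31 were Psmd11, a lid subunit that clamps lid and core together, at 14.3 (9.94 to 17.9) CPM per kb, Psmd13, also of the lid, at 28.4 (15.6 to 36.9), and Psmd1, the large scaffold of the base, at 28.6 (23.2 to 33.2). The ranges of Psmd13 and Psmd1 overlapped. This order rests on the deposited gene lengths. Without division by length, Psmb1 stayed highest at a mean of 493 CPM. Psmd11, at 93.3 CPM, was then above Psmb7 (73.0), Psmb5 (78.9) and Psmd13 (87.0).

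**Figure D1:**
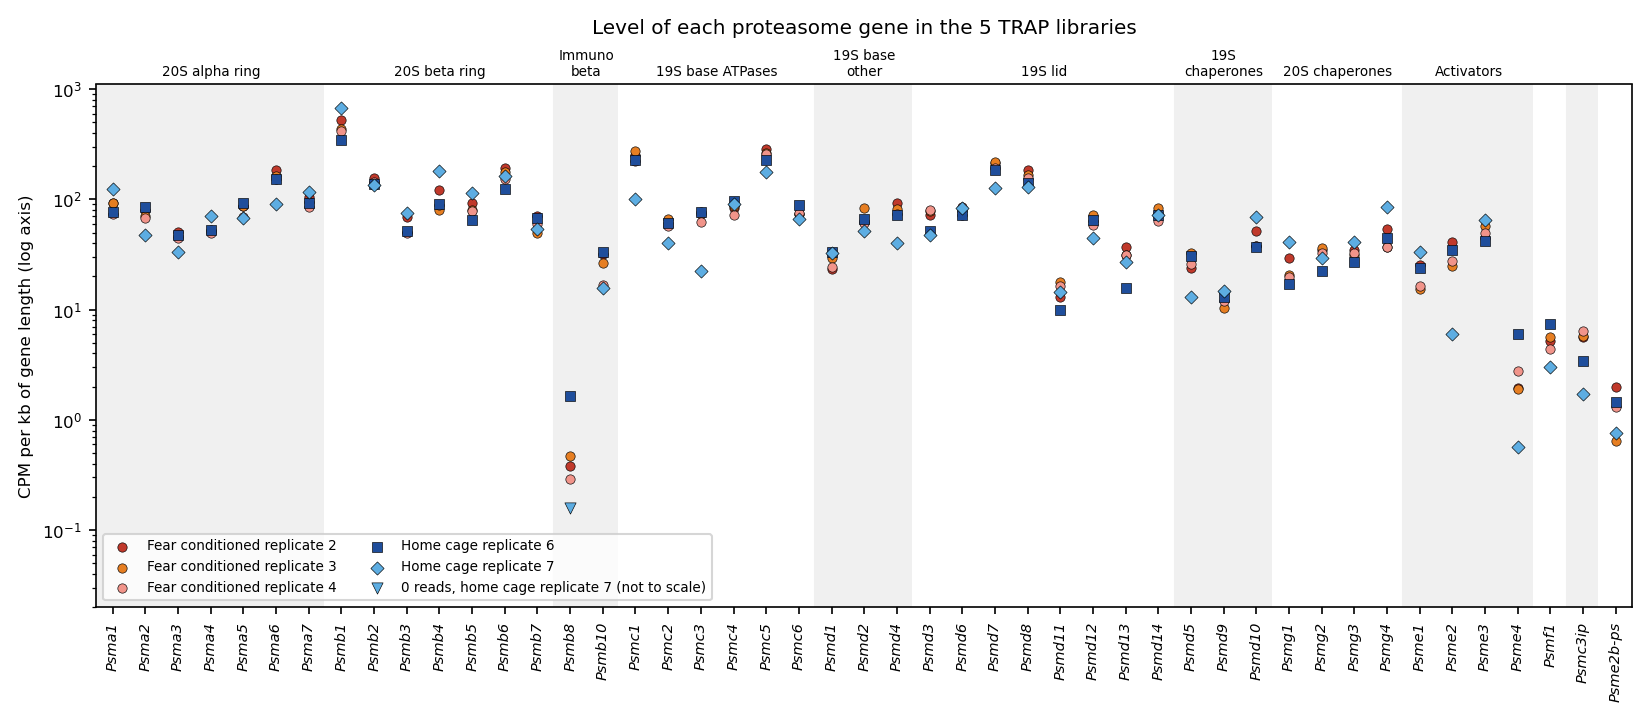
Level of each of the 47 genes in CPM per kb of gene length (log axis), with 1 point per library, ordered by the role of the gene. The constitutive subunits lie between Psmb1 at 478 and Psmd11 at 14.3 CPM per kb on average, whereas Psmb8 has a mean of 0.557 and no read in HC replicate 7.

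The cutting subunits and their immune forms differed widely in level. Per kb, Psmb6, Psmb5 and Psmb7 had means of 162, 85.9 and 60.5 CPM. Psmb10, the immune form that replaces Psmb7, had 24.8 CPM per kb, and Psmb8, which replaces Psmb5, had 0.557 CPM per kb. Thus the constitutive subunits were above the immune form in each of these pairs.

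No proteasome gene passed the test between the groups. limma on log2(CPM + 1), where a call needs an adjusted p below 0.05 together with a log2 fold change beyond 0.5 in either direction, called 0 of the 47 genes, and also 0% of the 13560 genes tested. At an unadjusted p under 0.05 there was 1 of the 47 (Psmd3), beside 16.8% of the genes tested. DESeq2 on the recovered reads also called 1 (Psmd3, higher in FC, adjusted p = 0.0366), beside 8.94% of 14489 genes. The median log2 fold change over the 47 genes was 0.08, the same as the 0.08 of all genes tested, with 28 positive and 19 negative values. All FC libraries were above both HC libraries in 9 of the 47 (19.1%, beside 20.2% of the genes tested) and below both in 3 (6.38%, beside 16.1%). For 25 of the 47 genes the 95% interval of the log2 fold change lay within 1 in either direction, and for 1, Psmd3, it did not include 0.

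**Figure D2:**
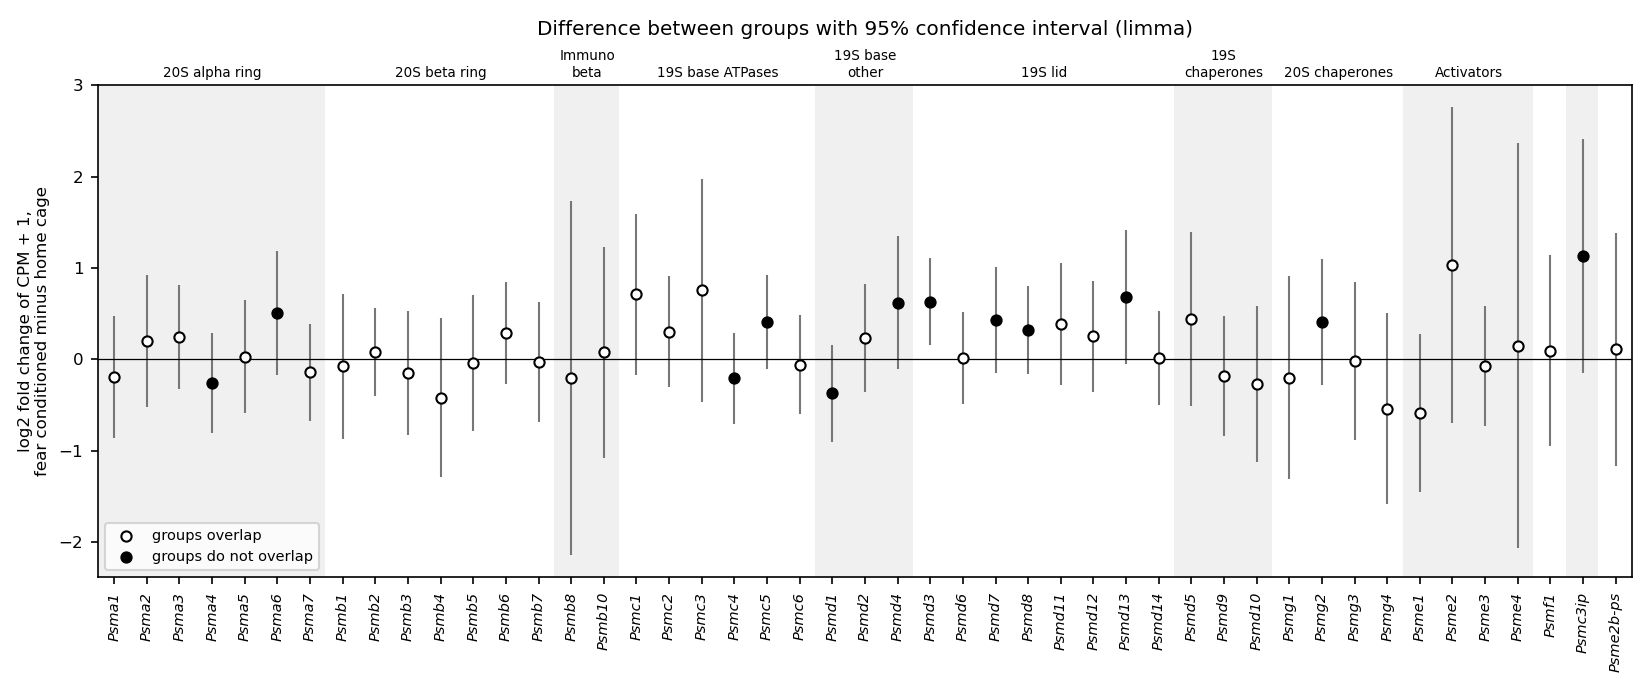
log2 fold change of CPM + 1, FC minus HC, for each gene with its 95% confidence interval from limma (3 FC and 2 HC libraries); filled points mark the 12 genes whose groups do not overlap. Only the interval of Psmd3 leaves out 0, and those of Psme4, Psmb8 and Psme2 are the widest.

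Calls depended on which HC library was kept. Without HC replicate 6, limma called 17 of the 47 genes (14 higher and 3 lower in FC) beside 60.5% of 13268 genes, and without HC replicate 7 it called 3 (Psmd13 higher, Psmb8 and Psme4 lower) beside 27.5% of 13550 genes. In both fits a single HC library stands for its group and is assumed to vary as the FC libraries do. No proteasome gene but Psme4 was called in both fits, and Psme4 changed direction between them. The log2 fold change had opposite signs without HC replicate 6 and without HC replicate 7 in 24 of the 45 proteasome genes tested in both fits, beside 6052 of 12855 genes. The median over the proteasome genes tested was 0.15 without HC replicate 6 and 0.05 without HC replicate 7, beside 0.18 and -0.04 for all genes tested in common with the fit of all libraries. By role it was 0.60 and -0.07 for the ATPases, 0.34 and 0.21 for the lid, 0.25 and -0.00 for the alpha ring, and -0.43 and 0.13 for the beta ring.

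The summed level of the 47 genes was 7617, 7345 and 6663 CPM in the FC libraries and 6715 and 6494 CPM in the HC libraries. FC replicate 4 lay between the HC libraries, so the groups overlapped. Of all reads on genes, the 47 took 0.763%, 0.705% and 0.671% in the FC libraries and 0.720% and 0.628% in the HC libraries. The 31 constitutive subunits alone summed to 6855, 6623 and 5998 against 5967 and 5770 CPM. Here the lowest FC library was just above the higher HC library, by less than the distances among the FC libraries.

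**Figure D3:**
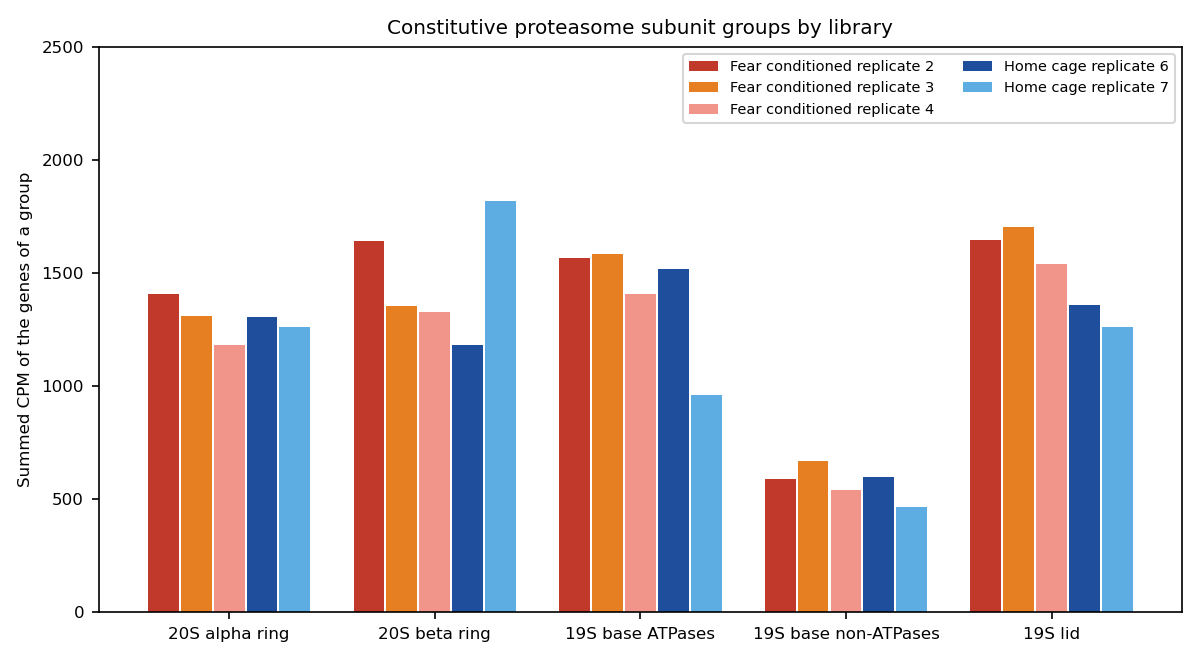
Summed CPM of the genes of 5 subunit groups, with 1 bar per library. The lid sums of the FC libraries (1543 to 1704) are all above those of the HC libraries (1264 and 1357), while the beta ring is highest and the ATPases are lowest in HC replicate 7.

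The alpha ring showed no common direction. Its 7 genes, Psma1 to Psma7, had a median log2 fold change of 0.03 and summed to 1406, 1311 and 1182 CPM in the FC libraries and 1308 and 1263 CPM in the HC libraries. Psma6 was at 227, 200 and 188 CPM in the FC libraries and 186 and 111 CPM in the HC libraries (log2 fold change 0.51, 0.88 without HC replicate 6 and 0.13 without HC replicate 7, SE 0.28, limma adjusted p = 0.406). FC replicate 4 and HC replicate 6 were nearly level, so the separation of the groups rests on HC replicate 7. Psma4 was at 129, 127 and 121 CPM against 130 and 173 CPM (log2 fold change -0.26, -0.46 without HC replicate 6 and -0.05 without HC replicate 7, adjusted p = 0.585). Here too only HC replicate 7 was far from the rest, on the other side.

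In the beta ring the groups overlapped in all 7 genes, Psmb1 to Psmb7, and the median log2 fold change was -0.04. The sum was 1644, 1354 and 1326 CPM in the FC libraries, 1183 CPM in HC replicate 6 and 1818 CPM in HC replicate 7. Psmb1 was at 535, 449 and 431 CPM in the FC libraries and 353 and 696 CPM in the HC libraries (log2 fold change -0.08, 95% interval -0.87 to 0.72, -0.57 without HC replicate 6 and 0.41 without HC replicate 7). The HC libraries enclosed all FC libraries. Psmb4, another subunit without a cutting site, was at 183, 120 and 133 CPM against 135 and 270 CPM (log2 fold change -0.42, -0.91 without HC replicate 6 and 0.08 without HC replicate 7, SE 0.36, adjusted p = 0.576). Psmb2 was the steadiest of the ring, at 214, 184 and 196 against 188 and 184 CPM.

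The ATPases of the 19S base, which unfold the substrate, had a median log2 fold change of 0.36 over 6 genes. All 6 were lower in HC replicate 7 than in HC replicate 6, and the sum fell from 1519 CPM in HC replicate 6 to 960 CPM in HC replicate 7, beside 1565, 1584 and 1406 CPM in the FC libraries. Psmc1 was at 384, 414 and 336 CPM in the FC libraries and 345 and 153 CPM in the HC libraries (log2 fold change 0.71, 1.30 without HC replicate 6 and 0.13 without HC replicate 7, SE 0.36, adjusted p = 0.375). Psmc3 was at 219, 212 and 180 CPM against 222 and 64.3 CPM (log2 fold change 0.76, 1.64 without HC replicate 6 and -0.13 without HC replicate 7, SE 0.50, adjusted p = 0.474). In Psmc1 HC replicate 6 lay among the FC libraries and in Psmc3 just above them, and in both HC replicate 7 was far below. Psmc5 was at 394, 363 and 355 CPM against 316 and 246 CPM (log2 fold change 0.41, 0.59 without HC replicate 6 and 0.23 without HC replicate 7, adjusted p = 0.383), without overlap. Psmc4 went the other way, at 198, 206 and 171 CPM against 228 and 214 CPM (log2 fold change -0.21, adjusted p = 0.629), again without overlap.

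The other base subunits differed among themselves. Psmd4, a receptor for ubiquitin chains, was at 235, 204 and 187 CPM in the FC libraries and 180 and 100 CPM in the HC libraries (log2 fold change 0.62, 1.04 without HC replicate 6 and 0.20 without HC replicate 7, SE 0.30, adjusted p = 0.356). Psmd1, the scaffold, was at 120, 153 and 125 CPM against 172 and 170 CPM (log2 fold change -0.37, SE 0.22, adjusted p = 0.425). For Psmd1 the HC libraries were almost equal and above every FC library. Psmd2, the other scaffold, was at 237, 312 and 230 CPM against 248 and 193 CPM, with overlap.

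Of the 8 genes of the lid, which removes ubiquitin from substrates, 4 were higher in every FC library and 0 were lower, beside 20.2% and 16.1% of the genes tested; no test of the difference was made. Its 8 genes had a median log2 fold change of 0.35 and summed to 1648, 1704 and 1543 CPM in the FC libraries and 1357 and 1264 CPM in the HC libraries. The groups of sums did not overlap, and the gap of FC replicate 4 to HC replicate 6 was wider than the spread of either group. Psmd3, a scaffold subunit of the lid (ENSMUSG00000017221), was at 252, 277 and 282 CPM in the FC libraries and 182 and 167 CPM in the HC libraries, or 270 ± 15.9 (SD, n = 3) and 174 ± 11.2 (SD, n = 2) CPM. Its log2 fold change of 0.63 (SE 0.20, 95% interval 0.15 to 1.11) had an unadjusted limma p of 0.018 and an adjusted p of 0.230, the smallest of the 47 genes. An exact two-sided permutation test of Psmd3 gave p = 0.1, the smallest that 3 against 2 libraries allow. Each group was tight, and every FC library was above both HC libraries.

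Psmd13 of the lid was at 113, 96.4 and 95.4 CPM in the FC libraries and 47.7 and 82.4 CPM in the HC libraries (log2 fold change 0.68, 0.30 without HC replicate 6 and 1.07 without HC replicate 7, SE 0.30, adjusted p = 0.323). Psmd7, the partner of the deubiquitinase, was at 339, 345 and 307 CPM against 295 and 202 CPM, and Psmd8 at 276, 249 and 237 CPM against 212 and 194 CPM. Their log2 fold changes were 0.43 (0.71 without HC replicate 6 and 0.16 without HC replicate 7) and 0.32. In these 3 genes the FC libraries were close together and the HC libraries lay below by unequal distances. Psmd14, the deubiquitinase itself, was level, at 208, 237 and 183 CPM against 207 and 206 CPM (log2 fold change 0.01, 95% interval -0.50 to 0.53). Psmd11, the clamp, was at 85.6, 116 and 107 CPM against 64.8 and 93.3 CPM, and Psmd6 and Psmd12 overlapped as well.

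Over the 17 subunits of the 19S particle, 14 had a positive log2 fold change, beside 7329 of the 13560 genes tested. The median of the 17 was 0.32, with 6 higher and 2 lower without overlap. The 14 subunits of the 20S rings had a median of -0.03, with 1 higher and 1 lower, and over all genes tested 20.2% were higher and 16.1% lower. HC replicate 7 was below HC replicate 6 in 14 of the 17 genes of the 19S particle, beside 7541 of the 13560 genes tested. No test was made of the difference between the particles. The median of the 19S particle was 0.41 without HC replicate 6 and 0.13 without HC replicate 7, and that of the 20S rings was -0.11 and 0.07. The sign differed between these fits in 5 of the 17 genes and in 10 of the 14, beside 6052 of 12855 genes. The ratio of the mean level per kb of the 20S rings to that of the 19S base and lid was 1.30, 1.10 and 1.18 in the FC libraries and 1.15 and 2.02 in the HC libraries. The difference of this log2 ratio was -0.35 (exact two-sided permutation p = 0.4, smallest possible 0.1), and HC replicate 6 lay among the FC libraries. The ratio of the beta ring to the ATPases was 1.26, 1.03 and 1.14 against 0.963 and 2.40 (exact two-sided permutation p = 0.6), and that of the beta ring to the alpha ring was 1.88, 1.66 and 1.83 against 1.47 and 2.54 (exact two-sided permutation p = 0.8). In each of these ratios HC replicate 7 was the highest library.

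The assembly chaperones showed no common direction. The 4 genes of 20S assembly, which pair as Psmg1 with Psmg2 and Psmg3 with Psmg4, summed to 150, 127 and 122 CPM in the FC libraries and to 103 and 181 CPM in the HC libraries. Psmg2 was at 49.9, 51.2 and 46.4 CPM against 32.1 and 42.2 CPM (log2 fold change 0.41, 0.22 without HC replicate 6 and 0.60 without HC replicate 7, adjusted p = 0.495), without overlap. Psmg4 was at 29.7, 20.3 and 20.4 CPM against 24.5 and 47.2 CPM (log2 fold change -0.54, -1.0 without HC replicate 6 and -0.08 without HC replicate 7, SE 0.43, adjusted p = 0.545). All 4 genes were higher in HC replicate 7 than in HC replicate 6. Among the 3 chaperones of 19S assembly, Psmd10 was at 76.1, 54.9 and 54.8 CPM against 54.1 and 101 CPM (log2 fold change -0.27, -0.71 without HC replicate 6 and 0.17 without HC replicate 7, SE 0.35, adjusted p = 0.721) and Psmd5 at 99.0, 136 and 107 CPM against 127 and 54.4 CPM. These overlapped, as Psmd9 did.

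Of the activators, Psme2 and Psme4 differed widely between the HC libraries, and no activator separated the groups. Psme1 and Psme2, the alpha and beta subunits of the PA28 ring, were at 46.0, 28.0 and 30.0 CPM against 43.6 and 60.3 CPM for Psme1 (log2 fold change -0.59, -0.82 without HC replicate 6 and -0.36 without HC replicate 7, SE 0.36, adjusted p = 0.440). Psme2 was at 76.9, 47.1 and 52.3 CPM against 65.8 and 11.2 CPM (log2 fold change 1.04, 2.26 without HC replicate 6 and -0.19 without HC replicate 7, 95% interval -0.69 to 2.76, adjusted p = 0.489). Their products form 1 ring, yet in HC replicate 7 Psme1 was at its highest and Psme2 at its lowest. The ratio of Psme2 to Psme1 per kb was 1.62, 1.62 and 1.68 in the FC libraries, 1.46 in HC replicate 6 and 0.179 in HC replicate 7 (exact two-sided permutation p = 0.1, the smallest possible; the ratio was chosen after its values were seen). Reads may also be shared between Psme2 and Psme2b-ps, which had 35, 13 and 22 reads in the FC libraries and 36 and 12 in the HC libraries. The part of shared reads in this ratio was not tested.

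Psme3, the activator of the nucleus, was at 130, 167 and 145 CPM in the FC libraries and 123 and 193 CPM in the HC libraries (log2 fold change -0.07, -0.39 without HC replicate 6 and 0.25 without HC replicate 7). Psme4, also known as PA200, was at 16.3, 15.7 and 22.9 CPM against 50.3 and 4.75 CPM (log2 fold change 0.15, SE 0.92). For Psme4 the HC libraries were the highest and the lowest of the 5, and the log2 fold change was -1.43 without HC replicate 7 and 1.73 without HC replicate 6. Psmf1, the inhibitor, was at 47.2, 51.1 and 39.4 CPM against 66.6 and 27.2 CPM (log2 fold change 0.10, 0.73 without HC replicate 6 and -0.54 without HC replicate 7, SE 0.43). Both Psme3 and Psmf1 overlapped between the groups.

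**Figure D4:**
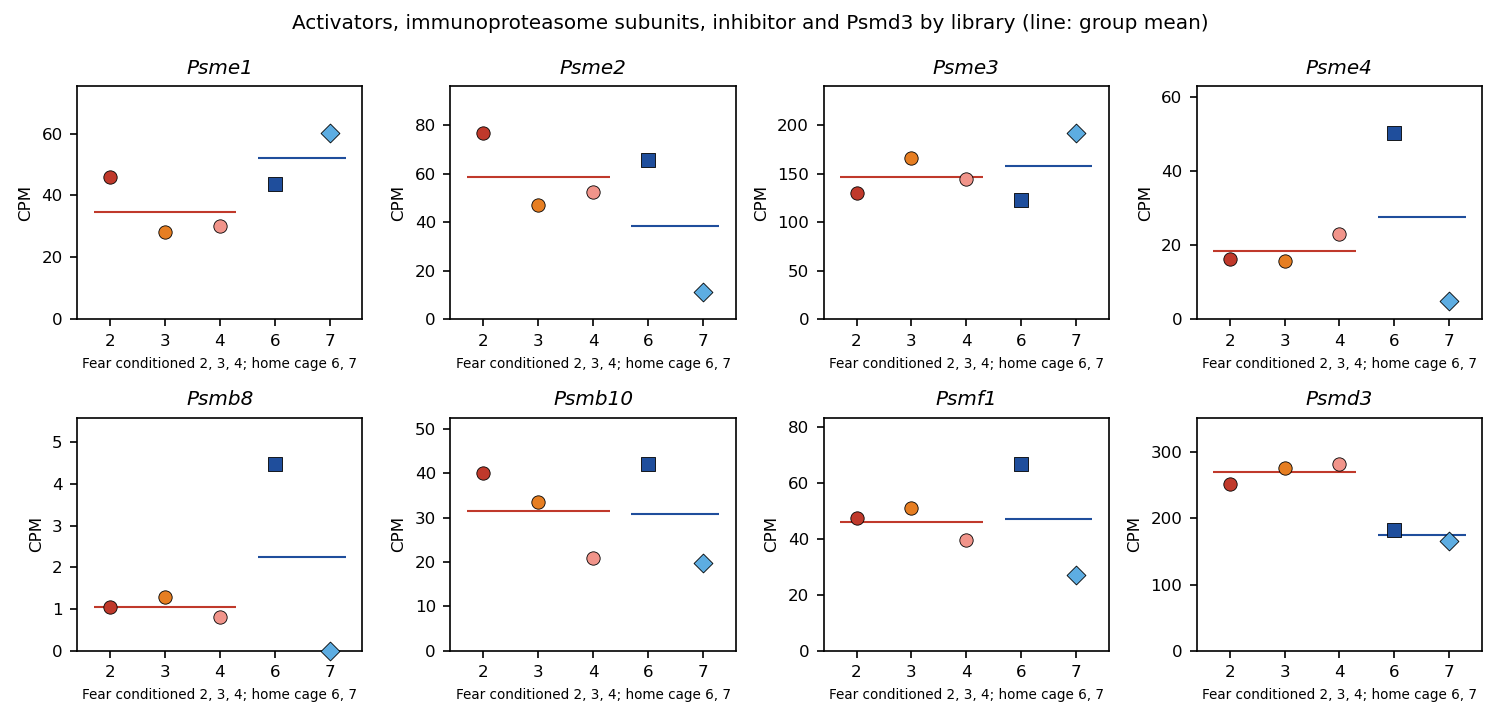
CPM of the 4 activators, the 2 immunoproteasome subunits, the inhibitor and Psmd3 in each library (linear axes from 0); lines are group means. Psmd3 separates the groups with little spread, while Psme2, Psme4 and Psmb8 are set by the distance between HC replicates 6 and 7.

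The immunoproteasome subunits did not separate the groups. Psmb8 had 22, 31 and 16 reads in the FC libraries, 134 in HC replicate 6 and 0 in HC replicate 7, or 1.04, 1.29 and 0.794 CPM against 4.47 and 0 CPM. A count of 0 in HC replicate 7 allows up to 0.158 CPM, the level of 3 reads, which covers counting error only. The FC libraries were therefore between the HC libraries (log2 fold change -0.20, SE 0.80, adjusted p = 0.913), and the value was -1.43 without HC replicate 7, while without HC replicate 6 the gene was under the filter on low values. Psmb10 was at 40.0, 33.6 and 21.0 CPM against 42.1 and 19.7 CPM (log2 fold change 0.08, 0.61 without HC replicate 6 and -0.45 without HC replicate 7, SE 0.48). Its ratio to Psmb7 per kb was 0.450, 0.537 and 0.276 in the FC libraries and 0.490 and 0.288 in the HC libraries (difference of log2 ratios 0.11, 0.49 without HC replicate 6, -0.27 without HC replicate 7 and -0.093 without FC replicate 3, exact two-sided permutation p = 0.8). No test was made of the ratio of Psmb8 to Psmb5, which was 0 in HC replicate 7.

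Psmc3ip had the highest log2 fold change of the 47, at 12.1, 12.2 and 13.7 CPM in the FC libraries and 7.28 and 3.69 CPM in the HC libraries (1.13, 1.54 without HC replicate 6 and 0.72 without HC replicate 7, SE 0.53, adjusted p = 0.343). The groups did not overlap. Its symbol comes from a binding of its protein to that of Psmc3, and it acts in homologous recombination.

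The spread between FC libraries was smaller for the proteasome genes than for all genes tested, many of which are low. The median SD of log2(CPM + 1) over the 3 FC libraries was 0.165 for the 47 genes and 0.232 for all genes tested, and none of the 47, against 1127 of the 13560 genes, spanned more than 1. Between the HC libraries the median absolute difference was 0.557 for the 47 genes and 1.08 for all genes tested, and 9 of the 47, against 7147 of the 13560 genes, differed by more than 1. Over the 9276 genes with a mean of at least 10 CPM, the median absolute difference between the HC libraries was 0.864, and over the 31 constitutive subunits it was 0.498. Between FC libraries the same pair of values was 0.293 and 0.147 for replicates 2 and 3, 0.213 and 0.127 for replicates 3 and 4, and 0.231 and 0.222 for replicates 2 and 4. For replicates 2 and 4 the subunits were thus about as far apart as the genes with a mean of at least 10 CPM, which were not matched to the subunits in level. Across the 31 constitutive subunits, the Pearson correlation of log2(CPM + 1) was 0.940 to 0.975 between FC libraries, 0.887 to 0.902 between FC libraries and HC replicate 6, 0.622 to 0.676 between FC libraries and HC replicate 7, and 0.587 between the HC libraries. HC replicate 6 was thus nearer to the FC libraries than to HC replicate 7. These correlations run over genes, which are not independent replicates.

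**Figure D5:**
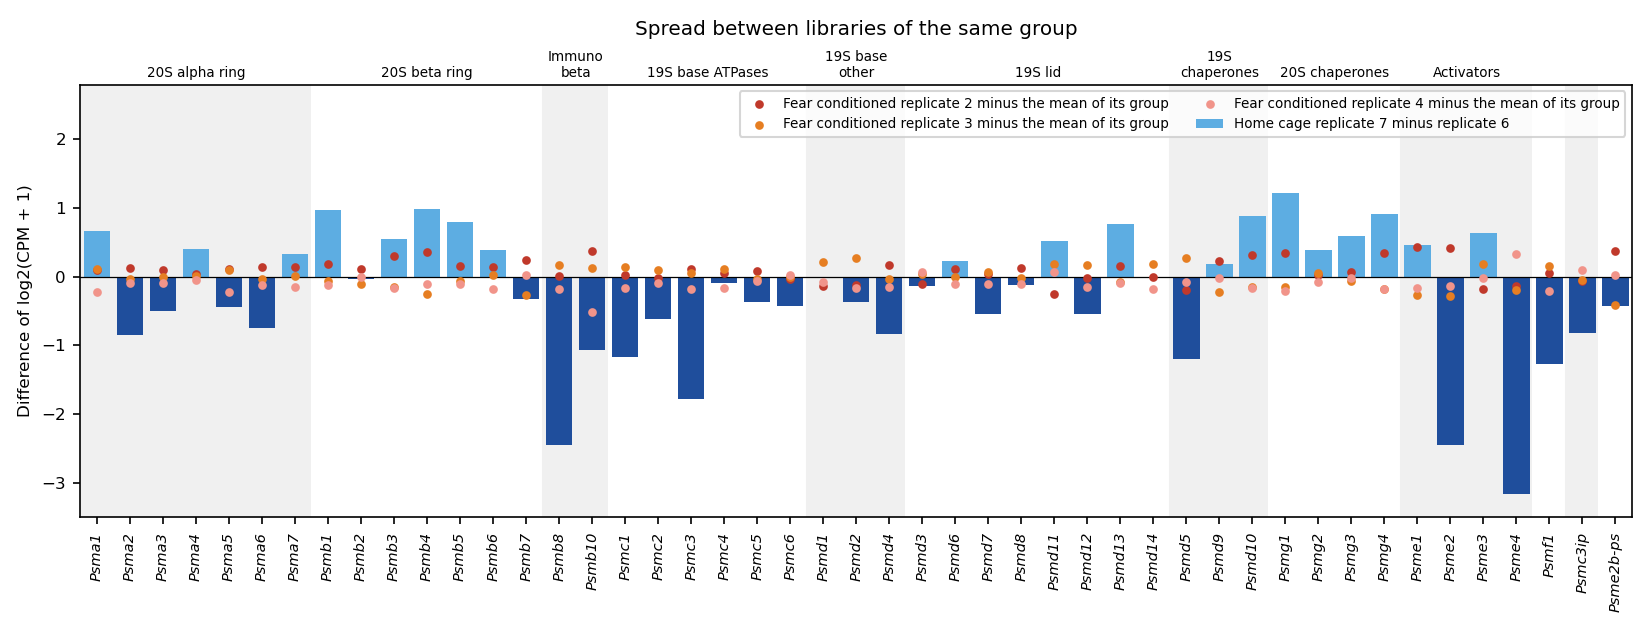
Difference between the 2 HC libraries (bars, replicate 7 minus replicate 6) and the deviation of each FC library from the mean of its group (points), both of log2(CPM + 1), for each of the 47 genes. The bars exceed 1 in size for 9 genes, while no gene spans more than 1 over the FC points.

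The direction of the difference between the HC libraries varied with the role of the gene, which is given as a description of 2 libraries. HC replicate 7 was below HC replicate 6 in all 6 ATPases (median of log2(CPM + 1), replicate 7 minus replicate 6, -0.52) and in all 3 other base subunits (-0.36). It was above in 5 of the 7 beta ring genes (0.56) and in all 4 chaperones of 20S assembly (0.75). The lid had a median of -0.07 over genes that went both ways, with 3 of 8 above and a median absolute difference of 0.37. The alpha ring had 3 of 7 above (-0.44). Over all 47 genes the median was -0.13, beside -0.20 for all genes tested. Of the 47, 28 were below and 19 above in HC replicate 7, beside 7541 below and 5872 above of the 13560 genes tested. Over the 44 genes with a mean of at least 10 CPM, the Spearman correlation of this difference with gene length was -0.324, beside -0.121 over the 31 constitutive subunits and -0.054 over 9270 genes. Between FC replicates 2 and 3 (replicate 2 minus replicate 3) the same correlations were -0.574, -0.593 and -0.348. A relation with length was thus also present between these FC libraries, and there over all genes as well. Other pairs of FC libraries are not given here. For gene length and the log2 fold change, FC minus HC, the correlations were 0.183, 0.134 and -0.202. The part of transcript length in these values was not tested.

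Other large complexes gave a scale for these values. The 81 cytosolic ribosomal protein genes tested had a median log2 fold change of -0.19, with 3 higher and 1 lower without overlap (beside 20.2% and 16.1% of all genes tested), and a median SD among FC libraries of 0.315. The 36 genes for NADH dehydrogenase subunits had a median of -0.05, with 4 higher and 0 lower, and an SD of 0.277. The 8 chaperonin genes had a median of 0.26, with 2 higher and 0 lower, and an SD of 0.152. HC replicate 7 was above HC replicate 6 by a median of 0.86 for ribosomal proteins and 1.20 for NADH dehydrogenase, and below by 0.56 for the chaperonin (-0.56). Without HC replicate 6 and without HC replicate 7, the median log2 fold change was -0.59 and 0.25 for ribosomal proteins, -0.69 and 0.54 for NADH dehydrogenase, and 0.46 and -0.07 for the chaperonin, so each turned sign with the HC library kept. No test was made between these lists.

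Genes that work with the proteasome were examined as lists. Their counts are to be read beside the shares of all genes tested that were higher (20.2%) or lower (16.1%) without overlap or had an unadjusted p under 0.05 (16.8%), and no test of a list was made. Of 11 partner proteins, 0 passed the test and 0 had an unadjusted p under 0.05, 1 was higher and 1 lower without overlap, and the median log2 fold change was 0.16. Adrm1, a ubiquitin receptor of the 19S particle, was at 132, 132 and 118 CPM in the FC libraries and 112 and 36.3 CPM in the HC libraries (log2 fold change 0.98, 1.78 without HC replicate 6 and 0.17 without HC replicate 7, adjusted p = 0.352). AI314180, known as Ecm29 and a clamp between the 19S and 20S particles, was at 53.9, 54.1 and 63.4 CPM against 79.6 and 83.1 CPM (log2 fold change -0.51, adjusted p = 0.349). Neither overlapped between groups, but they went in opposite directions. Akirin2, which carries proteasomes into the nucleus, was at 138, 111 and 126 CPM against 57.3 and 129 CPM, with overlap. The median over the 11 genes was 0.02 without HC replicate 6 and 0.17 without HC replicate 7.

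Of 8 genes that control proteasome transcription, 0 passed the test, 2 were higher and 2 lower without overlap, and 1 had an unadjusted p under 0.05. The median log2 fold change was 0.48, with 0.58 without HC replicate 6 and -0.39 without HC replicate 7. The gene with an unadjusted p under 0.05 was Ngly1, the glycanase that processes Nfe2l1, at 37.5, 47.3 and 35.9 CPM in the FC libraries and 59.8 and 74.2 CPM in the HC libraries (log2 fold change -0.72, adjusted p = 0.285). Nfe2l1 itself was at 202, 225 and 229 CPM against 154 and 219 CPM (log2 fold change 0.25, -0.00 without HC replicate 6 and 0.50 without HC replicate 7, adjusted p = 0.608), and Nfe2l2, its relative, at 3.56, 5.08 and 7.0 CPM against 14.5 and 0 CPM. Both overlapped between the groups.

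Of 17 genes for ubiquitin, its activation and its delivery, 0 passed the test, 3 were higher and 1 lower without overlap, 1 had an unadjusted p under 0.05 (higher in FC), and the median log2 fold change was 0.01, with 0.00023 without HC replicate 6 and 0.14 without HC replicate 7. Ubb, a polyubiquitin gene, had the highest value of the list, with a mean of 1777 CPM.

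Of 13 genes of interferon response and class I antigen presentation, 0 passed the test, 1 was higher and 3 lower without overlap, 1 was higher and 2 lower at an unadjusted p under 0.05, and the median log2 fold change was -0.54. The median absolute difference of log2(CPM + 1) between the HC libraries was 2.49 for this list, beside 1.08 for all genes tested. The median log2 fold change was -1.03 over the 12 genes tested without HC replicate 6 and -0.94 over the 11 tested without HC replicate 7. These medians hide a disagreement, since the sign differed between the fits in 6 of the 10 genes tested in both. B2m, the light chain of class I molecules, was at 41.5, 20.6 and 42.6 CPM in the FC libraries and 64.8 and 67.0 CPM in the HC libraries (log2 fold change -0.97, limma adjusted p = 0.296). H2-K1, a heavy chain, had a log2 fold change of -1.65 (adjusted p = 0.252). Irf1, an interferon response factor, was at 2.04, 2.12 and 2.04 CPM in the FC libraries and had no read in the HC libraries, which allows up to 0.10 and 0.158 CPM there. The 2 class I genes were lower in FC together with the astrocyte, oligodendrocyte and choroid plexus markers above, whose part was not tested.

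The genes whose levels were most like the mean of the 31 constitutive subunits over the 5 libraries were Dbnl (Pearson r = 0.995), Lman2l (0.984), Spcs2 (0.983), Zcrb1 (0.983) and Ift81 (0.982), of 9232 genes with a mean of at least 10 CPM. With 5 libraries such correlations are imprecise. Dbnl, an actin-binding protein of synapses, was at 152, 136 and 110 CPM in the FC libraries and 113 and 89.4 CPM in the HC libraries.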

How the data were processed

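The 5 libraries (3 FC and 2 HC) hold RNA captured on tagged ribosomes. The libraries were made with the SMARTer HV and NexteraXT kits and sequenced as paired ends. The deposited signal values are, per the file headers and the values, counts scaled by the authors to CPM of an effective library size. The processing notes name mm8 and DESeq, and the methods of the study name Tuxedo DESeq analysis; the aligner, annotation and versions were not spelled out in the sources used here. Dividing each value by the value of 1 read gave whole reads for 100% of values (tolerance 0.01), with 19605318 to 27937520 reads per library, so that 3 reads equal 0.10 to 0.158 CPM. Every listed gene reaches 1.00 CPM in some library, so genes below that level in all of them are absent from the background.

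limma 3.58.1 (R 4.3.3) was fitted with a trended prior to log2(CPM + 1) of all 13560 genes whose mean was 1 CPM or more. Its p-values are two-sided and were adjusted by Benjamini and Hochberg over all of these genes. All 47 members passed this filter. A gene was called at an adjusted p below 0.05 together with a log2 fold change beyond 0.5 in either direction. A fold change on this scale understates that of low genes. Single values were compared by an exact two-sided permutation test over the libraries. The script was tested on simulated data. Levels per length used the deposited gene lengths. The members and lists were chosen with earlier results of these data known. Values in every library are given for the 5 members with the largest fold change in each direction, the 3 highest and 3 lowest constitutive subunits per kb, and the immunoproteasome, activator and inhibitor genes. The members without overlap between groups, Psmb2, Psmb5, Psmb6, Psmd2, Psmd5, Psmd9, Psmd11 and Psmd14, and the ratios of Psme2 were added after their values were seen. Of other lists, up to 3 genes with the smallest p are named, with Nfe2l1, Nfe2l2 and the most abundant gene added. Some genes that these rules select are not reported here. Alternatives were another pseudocount, 2 other filters, quantile and TMM scaling, array weights, no trend, edgeR 4.0.16, DESeq2 1.42.0 and leaving out each library. A planned ratio of Psmb9 to Psmb6 was not computed, since no listed gene carried the symbol Psmb9.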

Additional observations from a re-analysis of the deposited data

How the results depend on the processing

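For the single genes and ratios, 330 alternative values kept their direction and side of the threshold, 16 kept their direction and passed it, and 21 changed sign. The median log2 fold change of all genes, 0.08 as reported, was -0.07 with DESeq2 and -0.04 with edgeR. It was 0.16 with a pseudocount of 0.1 and -0.015 when every library had to reach 1 CPM. Such shifts bear on small values. Over the proteasome genes the median, also 0.08 as reported, was -0.007 with DESeq2, 0.030 with edgeR and 0.011 with array weights. Without FC replicate 2 it was 0.020. The number of proteasome genes called was 0 in every alternative but DESeq2 (1) and the fits without an HC library, and ranged from 0 to 17 when each library was left out. The number at an unadjusted p under 0.05 was 0 with array weights, and 2 with DESeq2, with quantile scaling and when every library had to reach 1 CPM; it ranged from 0 to 21 when each library was left out. The genes without overlap ranged from 10 to 23 (higher) and from 3 to 16 (lower) when each library was left out, in part because fewer libraries overlap less often, and the lower count was 8 without FC replicate 2. The adjusted p of Psmd3 was 0.628, 0.698 and 0.729 without FC replicates 2, 3 and 4, 0.0243 without HC replicate 6 and 0.0842 without HC replicate 7. Among single genes, the log2 fold change of Psme4 was -0.58 with DESeq2, -0.54 with edgeR and -0.039 with quantile scaling. That of Psmf1 was -0.046 with DESeq2 and -0.0094 with edgeR, and that of Psmb10 was -0.15 with array weights. For Psmb8 it was 0.73 with a pseudocount of 0.1, -1.09 with DESeq2, -1.05 with edgeR and -0.42 with quantile scaling. For Psme2 it was 0.61 with DESeq2 and 0.65 with edgeR. The cause of these shifts was not tested. When each library was left out, log2 fold changes ranged from -1.43 to 1.73 for Psme4, -0.54 to 0.73 for Psmf1, -0.45 to 0.61 for Psmb10, -0.39 to 0.25 for Psme3, -0.57 to 0.41 for Psmb1, -0.91 to 0.078 for Psmb4, -0.13 to 1.64 for Psmc3, -0.71 to 0.17 for Psmd10 and -0.19 to 2.26 for Psme2, and the difference of the log2 ratio of Psmb10 to Psmb7 from -0.27 to 0.49. Array weights, which count a library less where its genes lie far from the fit, gave each HC library 0.172, beside 1.96 to 7.07 for the FC libraries. The 2 libraries of a group lie equally far from its mean and get the same weight. These weights therefore cannot tell HC replicate 6 from HC replicate 7. The edgeR quasi-likelihood test called 0 of 14489 genes (2404 at an unadjusted p under 0.05). No paired analysis was possible because the groups share no replicate number.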
